A study of Homo sapiens with 8 samples.

Results

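Clustered histone genes were read in poly-A RNA of HepG2, a cell line from a human liver tumour, after exposure to benzo[a]pyrene (BaP). They were chosen by name: every row of the deposited gene tables whose current symbol starts with H2AC, H2BC, H3C or H4C, or is H1-1 to H1-6, with pseudogenes and rows without a count left out. That gave 39 of the 49733 gene IDs, of which 26741 had a count. BaP, a combustion product, is a ligand of the aryl hydrocarbon receptor, and cells convert it to reactive forms that attach to DNA. The 4 groups were BaP 12 h, BaP 24 h, DMSO 12 h and DMSO 24 h, each with 2 libraries that the labels ascribe to independent experiments. BaP was given at 2 µM, and DMSO, the solvent that all groups received, at 0.5%, in fresh medium on cells at high confluence. The line has no genetic change of the study's own.

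Clustered histone genes encode the linker histone H1 and the core histones H2A, H2B, H3 and H4 that package newly copied DNA, and they are read mainly in S phase. Their mRNAs are known to end in a conserved stem-loop in place of a poly-A tail; the stem-loop binding protein SLBP and the U7 snRNP direct the cut behind it. Some of these genes also make transcripts that carry a poly-A tail, which can run past the stem-loop or be spliced around it. The libraries were made from RNA purified on oligo-dT beads, so the counts cover only what passed that step, and the share of the whole histone mRNA pool that they represent was not measured.

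The members fell into 5 H1, 11 H2A, 12 H2B, 6 H3 and 5 H4 genes. By GENCODE 29, 29 of them lie in the HIST1 cluster on chromosome 6, 8 in HIST2 on chromosome 1, 1 (H4C16) on chromosome 12 and 1 (H2BC12L, a copy outside the clusters) on chromosome 21. H2BC11 stands on 2 rows, so the 39 rows carry 38 symbols. Of 70 current family symbols, 26 had no row that could be matched by ID and were not analysed here.

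The 3′ ends are shown because poly-A selection acts on them. The 16-base histone stem-loop was searched for on the sense strand of the GENCODE 29 transcripts with the members' transcript IDs. The search used the letters that the versions printed here share, except that the base after the opening gg was left free. Of 43 such transcripts of members, 20 (46.5%), from 19 members, held it, against 0.0457% of 83064 protein-coding transcripts. The members' transcripts held 4 versions, given here as DNA with the 4 bases of the loop in capitals.
H2AC13, H2AC6, H2BC15, H2BC21 and 7 other members: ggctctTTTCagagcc
H2BC4, H2BC5 and H2BC7: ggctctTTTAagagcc
H4C2, H4C8, H4C11 and H4C16: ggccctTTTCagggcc
H2AC11: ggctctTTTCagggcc
The H2A, H2B and H3 versions begin the stem with ggctct, and the H4 version with ggccct. Transcripts without the motif include the only ones listed for H4C3 and for the H1 genes, and no match says only that these letters are not in the listed sequence.

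Upstream regions are shown for 3 members with different motif make-up, each from 250 bases before to 50 bases after the gene start, from RefSeq (GRCh38.p14), with 3 kinds of match in capitals. These are TATAAA, a form of the TATA box, on the gene's strand, the CCAAT box on either strand, and the octamer ATTTGCAT on either strand. They do not overlap in these windows. Only these exact letters were searched for, so other forms, such as the tatatata in the H1-2 window, were not counted.
H2AC13, chr6:27807923-27808222, plus strand: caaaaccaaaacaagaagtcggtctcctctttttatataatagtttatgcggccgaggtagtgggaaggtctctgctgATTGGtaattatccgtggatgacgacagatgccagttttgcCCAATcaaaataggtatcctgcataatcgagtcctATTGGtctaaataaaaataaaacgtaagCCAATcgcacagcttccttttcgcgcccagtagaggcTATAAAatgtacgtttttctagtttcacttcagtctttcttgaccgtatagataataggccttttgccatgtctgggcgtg
H2BC21, chr1:149886633-149886932, minus strand: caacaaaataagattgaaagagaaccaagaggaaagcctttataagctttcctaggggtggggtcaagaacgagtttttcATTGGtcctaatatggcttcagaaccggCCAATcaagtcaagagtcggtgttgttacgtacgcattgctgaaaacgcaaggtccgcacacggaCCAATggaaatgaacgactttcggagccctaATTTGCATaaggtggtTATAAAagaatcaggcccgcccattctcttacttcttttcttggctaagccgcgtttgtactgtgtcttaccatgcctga
H1-2, chr6:26056421-26056720, minus strand: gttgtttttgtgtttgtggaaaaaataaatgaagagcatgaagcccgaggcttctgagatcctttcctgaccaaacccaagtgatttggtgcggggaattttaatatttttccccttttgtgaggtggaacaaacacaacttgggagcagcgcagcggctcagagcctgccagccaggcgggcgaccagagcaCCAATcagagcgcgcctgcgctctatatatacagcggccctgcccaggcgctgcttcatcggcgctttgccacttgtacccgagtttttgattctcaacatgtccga
The window of H2AC13 held TATAAA 31 bases before the gene start and 4 CCAAT matches, that of H2BC21 held TATAAA at 30 bases, the octamer at 46 bases and 3 CCAAT matches, and that of H1-2 held 1 CCAAT match and neither of the others. Over the 34 member symbols in the table, TATAAA stood in 23 (67.6%, against 8.99% of 27305 genes), CCAAT in 30 (88.2%, against 39.7%) and the octamer in 16 (47.1%, against 2.19%). The octamer stood in 8 of 10 H2A and 7 of 10 H2B symbols, in 1 of 5 H3 symbols and in none of 5 H1 or 4 H4 symbols. CCAAT stood in all 30 H1, H2A, H2B and H3 symbols and in none of the 4 H4 symbols. H4C3 had no upstream region in the source used and is not among these 4.

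Total counts per library ranged from 2592272 (BaP 24 h replicate 1) to 16533490 (BaP 24 h replicate 2). CYP1A1, the classic target gene of the aryl hydrocarbon receptor, stood at 306.2 to 1060 CPM (counts scaled to library size by edgeR) in the 4 BaP libraries and at 1.5 to 6.567 CPM in the 4 DMSO libraries. All 8 hepatocyte markers looked for were present, at a summed 13060 to 16560 CPM in BaP libraries and 14620 to 19320 CPM in DMSO libraries, with BaP below DMSO within each time. Of 10 markers of other cell types, 9 matched a row and 6 were tested, and most of their counts came from KRT19, ACTA2 and CD68. The 9 matched markers summed to 477.6 and 390.2 CPM in BaP 12 h, against 674.3 and 443.7 CPM in DMSO 12 h. At 24 h they summed to 680.8 and 667.8 CPM in BaP, against 551.9 and 472.1 CPM in DMSO, with BaP above. PTPRC, the defining marker of leukocytes, had 0 to 2 counts in each library. CD14 was called higher at 12 h, and CD14, ACTA2 and CD68 at 24 h; leaving out single libraries ended the CD14 call in 6 of 8 fits at 12 h and 2 of 8 at 24 h, the CD68 call in 3 of 8 and the ACTA2 call in 0 of 8. Over all genes tested, 3.41% were called higher at 12 h and 3.11% at 24 h. CDH5 and COL1A1 had log2 fold changes of -1.53 and -1.90 at 24 h (adjusted p = 0.115 and 0.312). The part of these markers in the results below was not tested.

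The clustered histone genes as a group were lower in BaP than in DMSO libraries at both times. Their summed level was 117.9 and 115.2 CPM in the BaP 12 h libraries, against 173.3 and 152.8 CPM in the DMSO 12 h libraries. At 24 h it was 107.9 and 99.9 CPM in BaP, against 139.9 and 137.3 CPM in DMSO. The groups did not overlap at either time, and the mean in BaP was 28.5% lower at 12 h (116.6 ± 1.9 against 163.1 ± 14.5 CPM) and 25% lower at 24 h (103.9 ± 5.66 against 138.6 ± 1.8 CPM; SD, n = 2 each). The sum has no test of its own, and fewer cells in S phase and less histone RNA per cell cannot be told apart in these bulk samples.

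**Figure D1:**
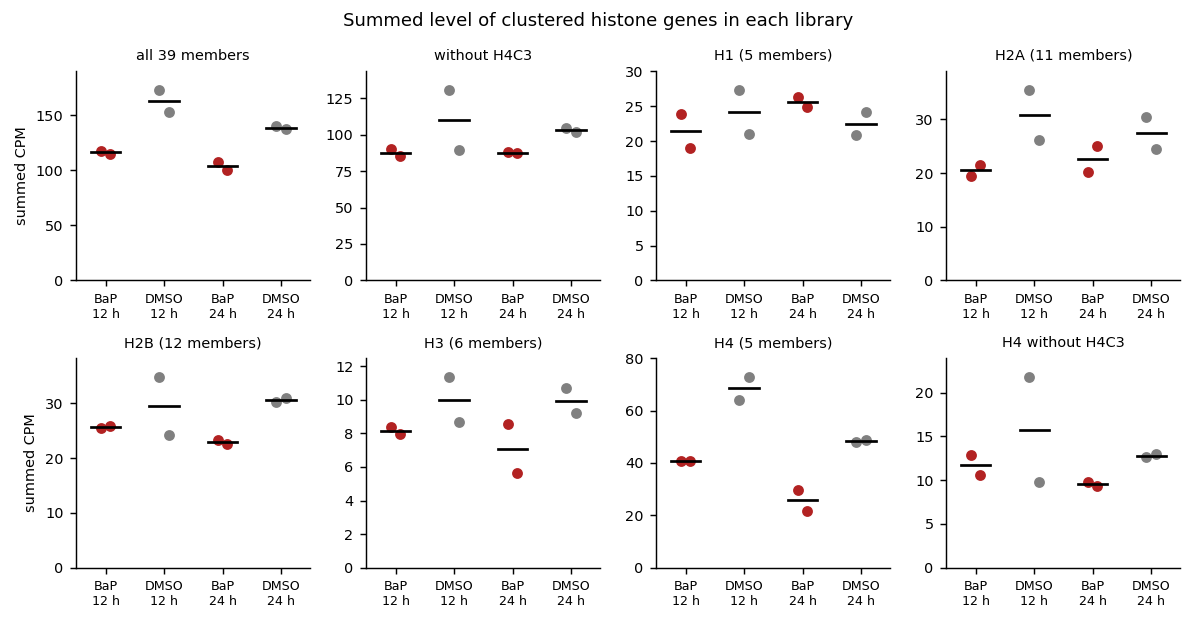
Summed CPM of all 39 clustered histone genes, of the same without H4C3, of each class and of H4 without H4C3, by library. Points are libraries and black bars the means of 2; BaP is red and DMSO grey. For all members the 4 BaP libraries lie between 99.9 and 117.9 CPM and the 4 DMSO libraries between 137.3 and 173.3 CPM.

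These genes were a small part of each library, 0.009032% to 0.01226% of all counts in BaP and 0.0131% to 0.01758% in DMSO libraries. The exact 95% binomial interval covers the sampling of counts alone. It leaves out the spread between cultures, the division of reads among similar copies and, as the reads carry no molecular identifiers, duplicate reads. The interval was widest in the shallow BaP 24 h replicate 1, from 0.009864% to 0.01247% around 0.01109%. At 12 h the intervals of both BaP libraries lay below those of both DMSO libraries; at 24 h that of BaP replicate 1 overlapped that of DMSO replicate 2, which began at 0.01216%. H4C3 alone held 25.5% of the members' summed mean CPM. Without it, the sum was 90.03 and 85.06 CPM in BaP 12 h, against 130.9 and 89.8 CPM in DMSO 12 h, which overlapped; the ratio of means was 0.793, and 0.975 without DMSO 12 h replicate 1. At 24 h it was 88.02 and 87.39 CPM in BaP, against 104.7 and 101.7 CPM in DMSO, which did not overlap, with a ratio of means of 0.85.

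The classes differed in how far apart the groups stood. H4 genes, whose product forms a tetramer with H3, summed to 40.8 and 40.8 CPM in BaP 12 h, against 64.19 and 72.8 CPM in DMSO 12 h, and to 29.64 and 21.82 CPM in BaP 24 h, against 47.8 and 48.57 CPM in DMSO 24 h. H2A genes summed to 19.47 and 21.5 CPM in BaP 12 h, against 35.54 and 26.14 CPM in DMSO 12 h, and overlapped at 24 h (20.16 and 25 against 30.38 and 24.42 CPM). H2B genes overlapped at 12 h (25.46 and 25.97 CPM in BaP, against 34.83 and 24.25 CPM in DMSO) and were lower at 24 h (23.31 and 22.65 CPM in BaP, against 30.19 and 30.94 CPM in DMSO). In the H2A, H2B, H3 and H4 sums the mean was lower in BaP at both times, with ratios from 0.534 for H4 at 24 h to 0.87 for H2B at 12 h. Without DMSO 12 h replicate 1 the 12 h ratio of H2B turned to 1.06, while those of H2A, H3 and H4 were 0.784, 0.942 and 0.56. H4C3 held 2953 of the 4020 H4 counts. The other H4 genes summed to 12.9 and 10.62 CPM in BaP 12 h, against 21.77 and 9.782 CPM in DMSO 12 h, which overlapped. Their 12 h ratio turned to 1.2 without DMSO 12 h replicate 1. At 24 h they did not overlap, with 9.754 and 9.306 CPM in BaP, against 12.65 and 12.94 CPM in DMSO. H1 was the class whose sum went the other way at 24 h, at 26.26 and 24.82 CPM in BaP, against 20.8 and 24.19 CPM in DMSO. H1-2 held 1189 of the 1938 H1 counts, and 2 of the 3 H1 genes tested below had a negative log2 fold change at 24 h. Corrected for length, the H1 sums overlapped at 24 h (49.23 and 36.06 TPM in BaP, against 36.74 and 40.14 TPM in DMSO). The classes were not tested against each other.

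Of the 39 members, 26 had enough counts to be tested (the lowest total was 49 counts), and 13 did not (0 to 37 counts in all 8 libraries, together 1.05% of the members' summed mean CPM). In edgeR's quasi-likelihood test, adjusted over all 14746 genes tested, 1 member fell and none rose at 12 h, where 4.84% of all genes fell and 3.41% rose. At 24 h 2 members fell and none rose, where 2.2% of all genes fell and 3.11% rose. DESeq2's Wald test also called none higher and 1 lower at each time. At an unadjusted p under 0.05, 6 members were lower and 0 higher at 12 h (10.4% and 9.22% of all genes), and 5 were lower and 1 was higher at 24 h (9.2% and 10.8% of all genes).

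Most members lay on the lower side without passing the test. The fitted log2 fold change was negative for 20 of 26 members at 12 h and for 22 of 26 at 24 h, against 47.9% and 49.3% of all genes, and 17 members were negative at both times. The median was -0.45 at 12 h and -0.44 at 24 h, against 0.015 and 0.006 over all genes. Both BaP libraries lay below both DMSO libraries for 13 members at 12 h (50%, against 23.9% of all genes), for 11 at 24 h (42.3%, against 24%) and for 7 at both times (11% of all genes). The reverse held for 1 member at 12 h (25.4% of all genes), for 2 at 24 h (23.2%) and for 0 at both times (10.3%). The 12 h median moved to -0.22 when DMSO 12 h replicate 1, the library with the highest histone sum, was left out.

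**Figure D2:**
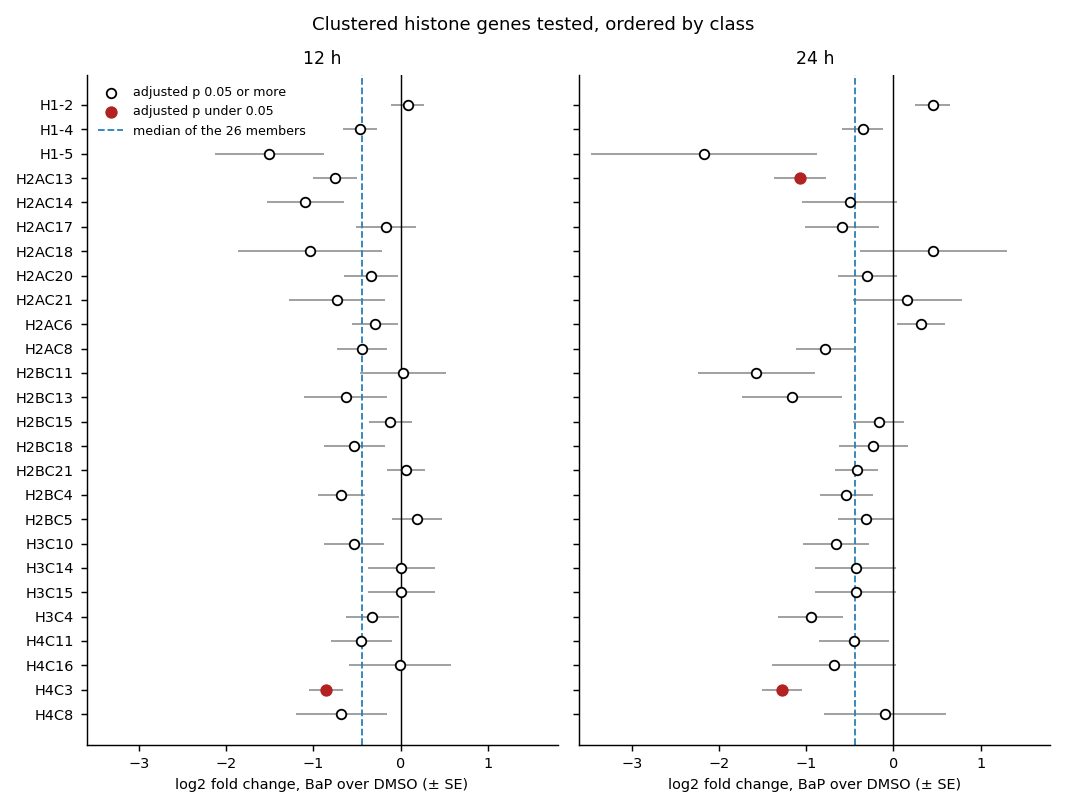
Fitted log2 fold change of BaP over DMSO (x axis, with SE) for the 26 members tested, at 12 h on the left and 24 h on the right. Filled points passed the threshold of 0.05 on adjusted p and the dashed line is the median, -0.45 at 12 h and -0.44 at 24 h; H4C3 is filled at both times and H2AC13 at 24 h.

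H4C3 (ENSG00000197061, older name HIST1H4C, chromosome 6), a gene for histone H4, had the highest level of all members, 126.4 TPM (the deposited length-corrected fraction, rescaled) over the 8 libraries. It had 240 and 392 counts in BaP 12 h, against 575 and 902 counts in DMSO 12 h, and 53 and 187 counts in BaP 24 h, against 414 and 190 counts in DMSO 24 h. Scaled for depth that was 27.9 and 30.17 CPM in BaP 12 h, against 42.43 and 63.02 CPM in DMSO 12 h, and 19.88 and 12.51 CPM in BaP 24 h, against 35.15 and 35.63 CPM in DMSO 24 h. Every BaP library lay below every DMSO library. H4C3 fell at 12 h (log2 fold change -0.86, SE 0.19, adjusted p = 0.0149 by edgeR's quasi-likelihood test) and at 24 h (-1.28, SE 0.23, adjusted p = 0.00732).

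These calls rest on few libraries. At 12 h H4C3 missed the threshold when BaP 12 h replicate 1 was left out (log2 fold change -0.81, adjusted p = 0.143), without BaP 12 h replicate 2 (-0.93, 0.08) and without DMSO 12 h replicate 2 (-0.56, 0.0882). The 24 h call did not survive leaving out BaP 24 h replicate 2 (-0.83, adjusted p = 0.181), DMSO 24 h replicate 1 (-1.28, 0.0716) or DMSO 24 h replicate 2 (-1.26, 0.0502). In each of these fits a group is left with 1 library, which is taken to vary like the others.

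H2AC13 (ENSG00000196747, HIST1H2AI, chromosome 6), an H2A gene whose transcript ends 39 bases after the stem-loop printed above, had 34 and 54 counts in BaP 12 h, against 112 and 78 counts in DMSO 12 h. At 24 h it had 9 and 44 counts in BaP, against 71 and 37 counts in DMSO. Scaled for depth it stood at 3.952 and 4.157 CPM in BaP 12 h, against 8.264 and 5.45 CPM in DMSO 12 h, and at 3.376 and 2.943 CPM in BaP 24 h, against 6.028 and 6.938 CPM in DMSO 24 h. All 4 BaP libraries lay below all 4 DMSO libraries. It fell at 24 h (log2 fold change -1.07, SE 0.3, adjusted p = 0.0468) and missed the threshold at 12 h (-0.75, SE 0.25, adjusted p = 0.082). At 24 h H2AC13 missed the threshold when BaP 12 h replicate 1 (adjusted p = 0.0735) was left out, and likewise BaP 12 h replicate 2 (0.0738), BaP 24 h replicate 2 (0.447), DMSO 24 h replicate 1 (0.187) or DMSO 24 h replicate 2 (0.222), and in DESeq2's Wald test (0.18). The 12 h value passed without BaP 24 h replicate 1 (0.0497) or DMSO 12 h replicate 2 (-1.04, 0.0242), and without DMSO 12 h replicate 1 it was -0.42 (0.474).

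The next members by level did not pass at either time. H1-2 (ENSG00000187837), a gene for linker histone that is known to be read outside S phase as well, stood at 15.46 and 11.24 CPM in BaP 12 h, against 14.24 and 10.69 CPM in DMSO 12 h. At 24 h it stood at 19.13 and 18.73 CPM in BaP, against 13.08 and 14.81 CPM in DMSO, and was one of the 2 members whose BaP libraries both lay above DMSO at that time (log2 fold change 0.45, SE 0.2, adjusted p = 0.225). H1-4 (ENSG00000168298), another linker histone gene, was on the lower side at both times, with 7.672 and 7.39 CPM in BaP 12 h, against 11.58 and 9.222 CPM in DMSO 12 h, and 7.128 and 5.954 CPM in BaP 24 h, against 7.302 and 9.001 CPM in DMSO 24 h. Its log2 fold changes were -0.47 (SE 0.2, adjusted p = 0.193) and -0.35 (SE 0.24, adjusted p = 0.433).

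H4C11 (ENSG00000197238), a second H4 gene with a short transcript that ends 6 bases after its stem-loop, had 11.16 and 8.313 CPM in BaP 12 h, against 18.37 and 7.965 CPM in DMSO 12 h. The wide gap between the DMSO 12 h libraries left the groups overlapping, and the log2 fold change, -0.45 with all libraries (adjusted p = 0.568), hung on which of them was kept. It was 0.27 (adjusted p = 0.608) without DMSO 12 h replicate 1, the opposite direction, and -0.96 (0.0121) without DMSO 12 h replicate 2. At 24 h it had 8.254 and 7.894 CPM in BaP, against 10.27 and 11.81 CPM in DMSO, with no overlap (-0.45, SE 0.4, adjusted p = 0.6). H2BC4 had 3.836 and 4.08 CPM in BaP 12 h, against 7.674 and 5.1 CPM in DMSO 12 h (-0.68, SE 0.27, adjusted p = 0.153), and overlapped at 24 h (6.003 and 3.88 against 5.689 and 7.501 CPM). H2AC8 was lower in both BaP libraries at both times, with 2.441 and 3.31 CPM in BaP 12 h, against 3.984 and 3.982 CPM in DMSO 12 h, and 1.876 and 2.341 CPM in BaP 24 h, against 4.415 and 3 CPM in DMSO 24 h (adjusted p = 0.447 and 0.202).

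H2BC21 and H2BC15, H2B genes on chromosomes 1 and 6, overlapped between BaP and DMSO at both times. H2BC21 had 7.207 and 6.851 CPM in BaP 12 h, against 7.6 and 5.869 CPM in DMSO 12 h, and 8.254 and 5.686 CPM in BaP 24 h, against 9 and 7.876 CPM in DMSO 24 h. H2BC15 had 6.394 and 7.082 CPM in BaP 12 h, against 9.149 and 5.589 CPM in DMSO 12 h, and 4.127 and 6.021 CPM in BaP 24 h, against 6.623 and 5.626 CPM in DMSO 24 h. H2AC6, an H2A gene, overlapped at 12 h and at 24 h stood at 7.503 and 6.756 CPM in BaP, against 6.453 and 4.313 CPM in DMSO (log2 fold change 0.31, SE 0.28, adjusted p = 0.576). It was the other member with both BaP libraries above DMSO at 24 h.

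**Figure D3:**
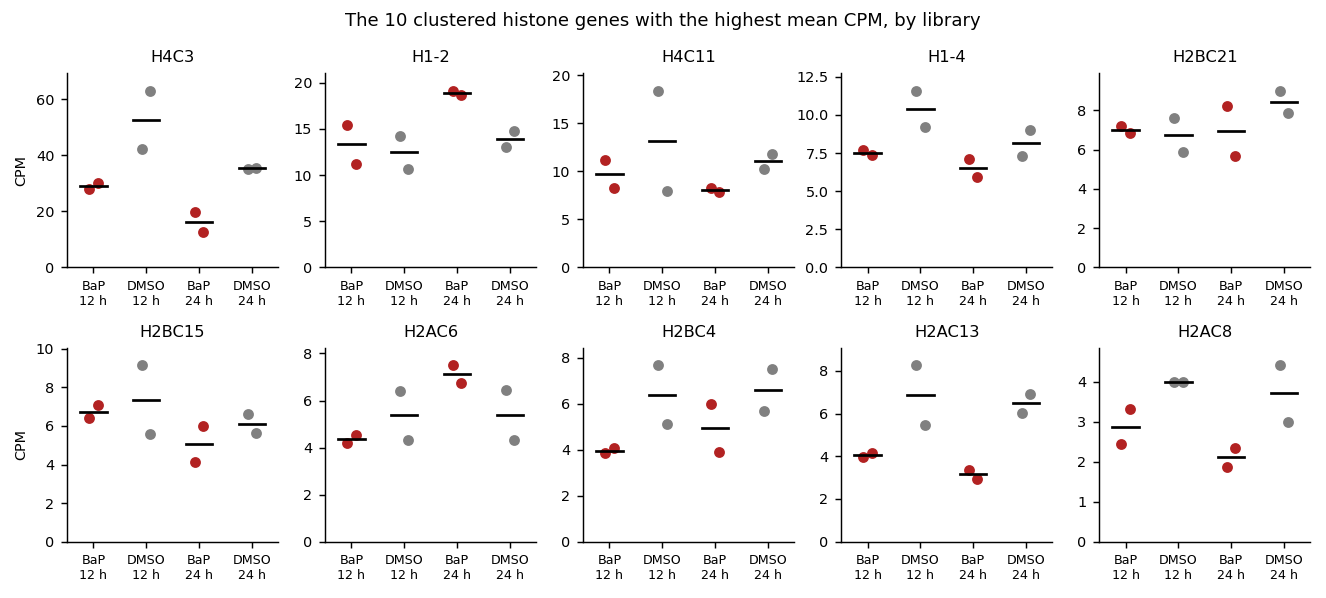
CPM of the 10 clustered histone genes with the highest mean level, by library, with the mean of 2 libraries as a bar; BaP is red and DMSO grey. These 10 genes hold 76.3% of the members' summed mean CPM. In H4C3 and H2AC13 each BaP point lies below each DMSO point; in H1-2 and H2AC6 the BaP 24 h points lie above those of DMSO 24 h.

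The remaining 16 tested members had low counts and none passed. Their log2 fold changes ran from -1.5 to 0.19 at 12 h and, with H1-5 left out, from -1.57 to 0.46 at 24 h. The lowest at 12 h belonged to H1-5, a linker histone gene, which had 5 and 4 counts in BaP 12 h, against 19 and 15 counts in DMSO 12 h; at 24 h it had 0 and 1 counts in BaP, against 3 and 2 counts in DMSO, too few for a fold. The highest, at 24 h, belonged to H2AC18, with 0 and 86 counts in the BaP 24 h libraries, against 39 and 14 counts in DMSO 24 h, so its libraries within a group differed more than the groups. H3C14 and H3C15 had identical counts in every library, from 5 to 28, and their GENCODE 29 transcripts, of 1656 bases, are identical in sequence, so they count as 1 measurement. H2BC11 (ENSG00000187990) had 8 and 17 counts in BaP 12 h, against 19 and 12 counts in DMSO 12 h, and 1 and 6 counts in BaP 24 h, against 12 and 8 counts in DMSO 24 h (log2 fold change -1.57, SE 0.68, adjusted p = 0.201). Other members are similar in sequence as well, so how the authors' software divided reads among them is uncertain, and many lie head to head with a neighbour while the counting is not stated to use strand.

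The transcripts were grouped by their 3′ ends to see which forms of the members carried the counts. The 10 transcripts that end within 200 bases of the stem-loop summed to 32.33 and 32.61 CPM in BaP 12 h, against 58.53 and 34.24 CPM in DMSO 12 h. At 24 h they summed to 24.24 and 30.8 CPM in BaP, against 40.27 and 42.89 CPM in DMSO. The 10 transcripts that run over 200 bases past it, which include H2AC6, H2BC18, H2BC21 and H3C10, summed to 20.57 and 20.28 CPM in BaP 12 h, against 27.23 and 19 CPM in DMSO 12 h. At 24 h they summed to 24.48 and 20.15 CPM in BaP, against 27.47 and 22.06 CPM in DMSO.

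BaP lay below DMSO at both times for the transcripts that end at the stem-loop (ratios of means 0.7 and 0.662), and overlapped DMSO at both times for those that run past it (0.884 and 0.901). At 12 h DMSO replicate 1 carried much of both ratios: without it they were 0.948 and 1.07. By gene, the 9 tested members with most counts on the first form had median log2 fold changes of -0.63 at 12 h and -0.45 at 24 h, and the 7 with most on the second form had 0.00 and -0.43. With H3C14 and H3C15, whose counts are identical, taken once, those 6 had -0.15 and -0.43. The difference between the forms was not tested. For some members the GENCODE 29 sequences differ from the Ensembl 58 models that the reads were assigned to. Over the 8 libraries H2AC13 (503 bases) had means of 5.139 CPM and 13.99 TPM, and H2BC21 (2194 bases) 7.293 CPM and 3.827 TPM. H3C10 (listed at 1237 bases) had 2.704 CPM and 8.534 TPM, H2BC18 (1954) 2.206 and 4.726, and H2BC15 (432) 6.326 and 4.339. H2AC6 (listed at 1668 and 1654 bases) had 5.563 CPM and 8.818 TPM. TPM is corrected for length, so H3C10 and H2BC18 were counted on shorter models than listed, and H2BC15 on a longer one. For H2AC6 at least 1 model was shorter than listed. The form of these members is uncertain. The sums, ratios and medians by form given above sort them by the listed sequences. They may thus hold H3C10, H2BC18, H2AC6 and H2BC15 in the wrong group, and the values were not computed on another grouping. The 21 transcripts with neither a stem-loop nor a polyadenylation signal near the end, which hold H4C3 and the H1 genes, summed to 59.55 and 58.19 CPM in BaP 12 h, against 82.36 and 94.89 CPM in DMSO 12 h, and to 54.07 and 44.79 CPM in BaP 24 h, against 66.71 and 68.81 CPM in DMSO 24 h. They are not a 3′ form of their own. Many of their listed sequences are short, such as 642 bases for H1-2, 387 for H2AC14 and 390 for H2AC20, and appear to hold the coding part only. Where these RNAs end cannot be told from such sequences.

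H2BC5 and H2BC4, H2B genes, each list a second transcript that lacks the stem-loop and has a polyadenylation signal within its last 40 bases, shown as 30 bases around the signal, which is in capitals.
H2BC5, ENST00000289316: aaagttataattAATAAAatctgcggagaa
H2BC4, ENST00000314332: cataaagacaaaATTAAAataactcctagt
The H2BC5 form had 1.917 and 0.7259 CPM in BaP 12 h, against 0.6161 and 0.4045 CPM in DMSO 12 h, and 1.347 and 1.731 CPM in BaP 24 h, against 0.9229 and 0.6882 CPM in DMSO 24 h. Both BaP libraries lay above both DMSO libraries at each time. The form of H2BC5 that ends 39 bases after the stem-loop (ENST00000377777) had 1.39 and 2.416 CPM in BaP 12 h, against 2.168 and 2.359 CPM in DMSO 12 h, and 0.529 and 1.385 CPM in BaP 24 h, against 2.475 and 3.077 CPM in DMSO 24 h. The form without the stem-loop thus held 58% and 23.1% of the H2BC5 counts in BaP 12 h, against 22.1% and 14.6% in DMSO 12 h, and 71.8% and 55.6% in BaP 24 h, against 27.2% and 18.3% in DMSO 24 h. These shares rest on 5 to 47 counts per library and were not tested. The stem-loop form of H2BC5 also held a polyadenylation signal in its last 40 bases. The 2 forms thus differ in the stem-loop and not in having a signal. For H2BC4 the form without the stem-loop held 13.8% and 2.69% of the counts in BaP 12 h, against 2.67% and 11.5% in DMSO 12 h, which overlapped. At 24 h it held 17.9% and 12.8% in BaP, against 6.29% and 3.43% in DMSO, which did not overlap, on under 10 counts of that form in each library.

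H2AC6 lists 2 transcripts that both run over 1000 bases past the stem-loop. The longer, ENST00000314088, had 4.011 and 4.77 CPM in BaP 24 h, against 2.425 and 2.042 CPM in DMSO 24 h, while the other, ENST00000377791, overlapped (3.493 and 1.987 CPM in BaP, against 4.028 and 2.271 CPM in DMSO). At 12 h both transcripts overlapped between BaP and DMSO.

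**Figure D4:**
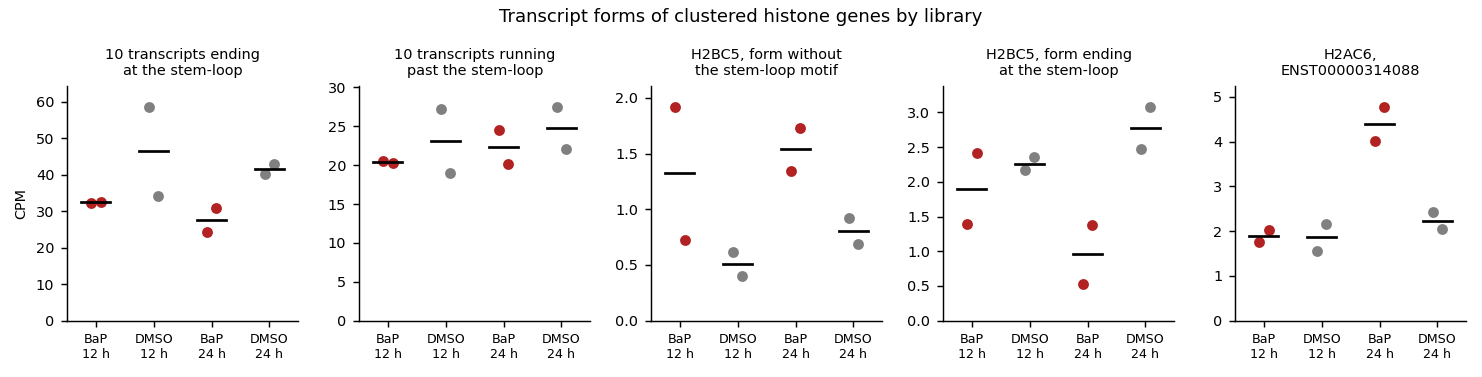
CPM by library for the 10 transcripts that end within 200 bases of the stem-loop, the 10 that run further, the 2 forms of H2BC5 and the longer H2AC6 transcript; black bars are means of 2 libraries, BaP red and DMSO grey. The H2BC5 form without the stem-loop stands between 0.7259 and 1.917 CPM in BaP and between 0.4045 and 0.9229 CPM in DMSO, and is above DMSO within each time.

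No member's response to BaP was called different between 24 h and 12 h in the test of the difference itself (0 higher and 0 lower by edgeR and by DESeq2, 0 higher and 0 lower at an unadjusted p under 0.05, against 5.51% and 4% of all genes), where 0.461% of all genes were called higher and 0.0814% lower. For H4C3 the difference was -0.42 (SE 0.3, adjusted p = 0.716). In DMSO, 24 h against 12 h, no member passed either (0 higher and 0 lower by edgeR and by DESeq2, against 2.27% and 1.01% of all genes), and at an unadjusted p under 0.05 none was higher and 2, H1-5 and H4C3, were lower (8.82% and 7.55% of all genes). H4C3 was at -0.58 there (SE 0.19, adjusted p = 0.147), with 35.15 and 35.63 CPM in DMSO 24 h, against 42.43 and 63.02 CPM in DMSO 12 h, and was called lower in some alternative fits given below. The members' summed mean in DMSO at 24 h was 0.85 times that at 12 h. The BaP and time comparisons share DMSO libraries, so they are not independent.

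Of 20 genes of histone mRNA end processing and decay none passed at 12 h or 24 h, with median log2 fold changes of 0.06 and -0.02; at an unadjusted p under 0.05, 2 were higher and 0 lower at 12 h, and 3 higher and 2 lower at 24 h, where 9.22% and 10.4% of all genes were at 12 h and 10.8% and 9.2% at 24 h. SLBP stood at 41.15 and 46.34 CPM in BaP 12 h, against 42.94 and 50.79 CPM in DMSO 12 h, and at 29.64 and 30.04 CPM in BaP 24 h, against 34.47 and 33.75 CPM in DMSO 24 h (log2 fold change -0.1 and -0.19, adjusted p = 0.767 and 0.493). LSM10 and LSM11 encode the proteins particular to the U7 snRNP. LSM10 had 24.76 and 44.69 CPM in BaP 24 h, against 24.62 and 20.63 CPM in DMSO 24 h (0.7, SE 0.22, adjusted p = 0.0853), with the BaP libraries far apart. Leaving out BaP 24 h replicate 1 gave 0.96 (adjusted p = 0.000258), and leaving out BaP 24 h replicate 2 gave 0.11 (0.907). LSM11 (0.19 and -0.17) and CASP8AP2, which encodes the histone locus body protein FLASH (-0.18 and -0.47), did not pass.

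Of 13 genes of histone gene transcription, 1 fell at 12 h and none passed at 24 h. The shares of all genes were 4.84% lower and 3.41% higher at 12 h, and 2.2% and 3.11% at 24 h. The median log2 fold changes of the 13 genes were 0.04 and -0.18. At 12 h 46.2% of them and 47.4% of the histone chaperone genes below were negative, against 47.9% of all genes. At 24 h these were 84.6% and 73.7%, against 49.3%. NPAT, the cyclin E and CDK2 substrate that switches on histone genes, had 12.09 and 12.16 CPM in BaP 12 h, against 11.29 and 12.02 CPM in DMSO 12 h, and 11.25 and 7.894 CPM in BaP 24 h, against 10.02 and 9.939 CPM in DMSO 24 h (adjusted p = 0.913 and 0.689). E2F1, a transcription factor of the G1 to S transition, fell at 12 h, to 41.73 and 47.26 CPM in BaP, against 60.06 and 60.15 CPM in DMSO (-0.43, SE 0.12, adjusted p = 0.0407). That call was lost without either BaP 12 h library (0.395 without replicate 1 and 0.102 without replicate 2), either DMSO 12 h library (0.131 and 0.099) or either DMSO 24 h library (0.0784 and 0.0785). Of 19 histone chaperone genes, ASF1A, which hands H3 and H4 to the assembly factors, rose at 12 h, to 33.25 and 32.56 CPM in BaP, against 16.97 and 16.14 CPM in DMSO (0.99, SE 0.16, adjusted p = 0.000827), and none passed at 24 h; the ASF1A call held without each library in turn.

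Histone genes read outside S phase, whose mRNAs carry a poly-A tail, gave 11 tested genes. None passed at 12 h and 1 fell at 24 h, where 2.2% of all genes fell and 3.11% rose. H2AX, which is known to make both a stem-loop form and a polyadenylated form, had 176.5 and 166.8 CPM in BaP 12 h, against 212.1 and 181 CPM in DMSO 12 h. It fell at 24 h, to 121.2 and 105.6 CPM in BaP, against 159.8 and 172.7 CPM in DMSO (-0.56, SE 0.13, adjusted p = 0.0161), and lost the call without BaP 24 h replicate 2 (0.116), DMSO 24 h replicate 1 (0.0883) or DMSO 24 h replicate 2 (0.166). The median log2 fold change of these genes was -0.11 at 12 h and 0.01 at 24 h.

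Genes of S phase and DNA replication were partly lower as well. Of 26 tested, 3 fell and 1 rose at 12 h, and 4 fell and none rose at 24 h, with medians of -0.2 and -0.17. Over all genes 4.84% fell and 3.41% rose at 12 h, and 2.2% fell and 3.11% rose at 24 h. POLA1, of DNA polymerase alpha, fell at 12 h, to 14.76 and 15.39 CPM in BaP, against 23.24 and 25.22 CPM in DMSO (-0.68, SE 0.15, adjusted p = 0.00944; 0.115 and 0.0769 without BaP 12 h replicate 1 or 2). MCM3 and MCM6, subunits of the replicative helicase, were the other 2 that fell (-0.51 and -0.49, adjusted p = 0.0104 and 0.035), and RRM2, the small subunit of ribonucleotide reductase, rose (0.51, adjusted p = 0.0152). At 24 h the genes that fell were MCM2 (-0.73, adjusted p = 0.00197), UNG, a uracil-DNA glycosylase (-0.74, 0.0071), MCM4 (-0.58, 0.0158) and MCM5 (-0.52, 0.026). Each of the 12 h calls was lost when either BaP 12 h library was left out, and each of the 24 h calls without DMSO 24 h replicate 1, which for MCM2 was the only such library (0.0554). The highest adjusted p was 0.404, for MCM6 without BaP 12 h replicate 1. In DMSO over time 11 of the 26 fell and all 26 were negative, against 1.01% and 49.2% of all genes, with a median of -0.45. The part of the change in S phase genes in the histone values was not tested.

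**Figure D5:**
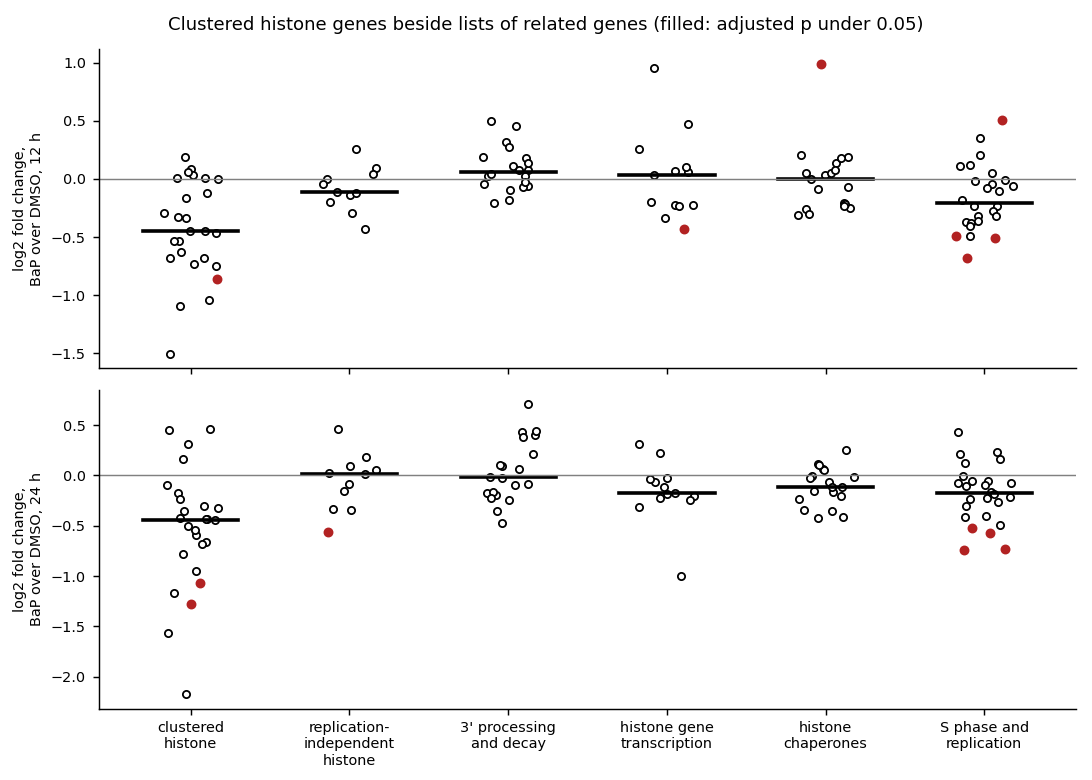
Fitted log2 fold change of BaP over DMSO at 12 h (top) and 24 h (bottom) for the clustered histone genes and 5 lists of related genes. Points are genes, filled where adjusted p was under 0.05, and bars are medians; the clustered histone genes have the lowest median of the 6 lists at both times, -0.45 and -0.44, and the S phase genes -0.2 and -0.17.

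RNAs known to carry no poly-A tail were counted as well, as a measure of RNA carried through the selection. Of 26 looked for, 18 matched a row and 5 were tested, none of which passed. The 18 matched RNAs summed to 57.55 and 88.47 CPM in BaP 12 h, against 33.98 and 91.75 CPM in DMSO 12 h. At 24 h they summed to 72.13 and 68.46 CPM in BaP, against 76.61 and 68.38 CPM in DMSO. The groups overlapped at both times. By CPM the library with the least of these RNAs was DMSO 12 h replicate 1, which had the most clustered histone RNA. By TPM that library was level with others, at 577.3 TPM, beside 577.5 in BaP 24 h replicate 2 and 584.1 in BaP 12 h replicate 1. The part of such carry-over in the histone values was not tested.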

How the data were processed

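Poly-A RNA from 8 libraries was analysed, 2 per group. Reads were processed by the authors with Bowtie 0.12.7 and RSEM 1.1.7, per the submitters' processing notes, against Ensembl 58 as named in the deposited files; for the genome build, the sources used here give none. The deposited tables hold RSEM estimated counts, not normalised, and fractions of all transcripts corrected for length; posterior mean counts are deposited beside them. Expected counts were rounded for the tests. Names were found for 85% of gene IDs (96.9% of counts), by gene ID or transcript ID, and for the members 30 by gene ID and 9 by transcript ID; in H2BC11 these clash, and both rows were kept.

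In R 4.3.3, edgeR 4.0.16 took all 8 libraries in 1 fit, with a mean for each group (filterByExpr, minimum count 10 and minimum total 15; TMM scaling; robust quasi-likelihood), two-sided, with Benjamini-Hochberg adjustment over all 14746 genes and a threshold of 0.05. CPM use the TMM-scaled library sizes and whole rounded counts for genes, unrounded counts for sums and transcripts. SEs are the absolute log2 fold change divided by the square root of F. A gene at 0 counts may hold up to 3, which is 1.125 CPM in BaP 24 h replicate 1 and 0.2007 CPM in replicate 2.

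On simulated data made for the 12 h comparison (14584 genes), 66.3% of genes changed by 1 on the log2 scale and 87.9% of those changed by 2 were recovered. The members and lists were chosen with earlier results of these data known. Named genes are members that passed, the 10 members with the highest mean CPM, up to 4 genes per list and comparison that passed, and SLBP, NPAT, CASP8AP2, LSM10, LSM11, H2AX and CYP1A1; H1-5, H2AC18, H2BC5, H2BC11, H3C14 and H3C15 were named after their values were seen. Alternatives were DESeq2 1.42.0 (size factors, Wald test), no filter, the replicate block, the comparison's libraries alone, posterior mean counts and leaving out each library. Thinning all libraries to 2592234 counts, the sum without H4C3, sums without each library, medians with H3C14 and H3C15 taken once, and the grouping of transcripts by 3′ end were added after the data were seen.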

Additional observations from a re-analysis of the deposited data

How the results depend on the processing

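No member was called higher in any comparison under any alternative. The count of members called lower at 12 h, 1 in the fit reported, became 3 when the other libraries were not fitted and 0 with all libraries thinned to the shallowest; leaving out 1 library gave 0 to 2. The count at 24 h, 2 in the fit reported, became 1 with the DESeq2 Wald test, 1 with the replicate block, 1 when the other libraries were not fitted and 1 after thinning; leaving out 1 library gave 0 to 2. In DMSO over time the count, 0 in the fit reported, became 1 (H4C3) with no filter (adjusted p = 0.00239) and 1 when the other libraries were not fitted (0.0314); leaving out 1 library gave 0 to 1. H4C3 at 12 h also missed the threshold after thinning (adjusted p = 0.108); H2AC13 at 24 h ranged from 0.0138 to 0.447 over its alternatives and at 12 h from 0.0242 to 0.474. The members' median log2 fold change stayed negative for BaP, from -0.57 to -0.22 at 12 h and from -0.64 to -0.34 at 24 h; it ranged from -0.41 to 0.06 for the difference and from -0.29 to 0.21 for DMSO over time, so those 2 have no stable sign. The ratio of summed levels was 0.733 and 0.745 (12 h and 24 h) without TMM scaling, 0.714 and 0.746 with DESeq2 size factors, and 0.714 and 0.75 with posterior mean counts, with no overlap in any. Whether a replicate number marks a shared experiment is not in the labels; same-numbered libraries deviated together for BaP 12 h and DMSO 12 h (r = 0.424 over 7299 genes) but not for BaP 24 h and DMSO 24 h (0.064), so the block is given here only. In the block, H2AC13 at 24 h missed the threshold (adjusted p = 0.0757). The cause of these changes was not tested, beyond the fewer libraries of the fits that left some out. Depth limits the 13 untested members and every 24 h value, since BaP 24 h replicate 1 held 2592272 counts.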

Other observations

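H2BC5 was the tested member whose groups did not overlap in opposite directions at the 2 times. It stood at 3.255 and 3.156 CPM in BaP 12 h, against 2.804 and 2.795 CPM in DMSO 12 h, and at 1.876 and 3.144 CPM in BaP 24 h, against 3.396 and 3.75 CPM in DMSO 24 h. The difference between the times did not pass (log2 fold change -0.51, SE 0.43, adjusted p = 0.76 by edgeR).

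By genomic cluster, the HIST1 members on chromosome 6 summed to 99.27 and 96.8 CPM in BaP 12 h, against 146.5 and 134.5 CPM in DMSO 12 h, and to 91.21 and 79.47 CPM in BaP 24 h, against 115.8 and 116.6 CPM in DMSO 24 h. The HIST2 members on chromosome 1 summed to 17.37 and 17.49 CPM in BaP 12 h, against 25.24 and 17.7 CPM in DMSO 12 h, and to 16.31 and 19.61 CPM in BaP 24 h, against 22.45 and 20.33 CPM in DMSO 24 h. In neither cluster did the libraries overlap between BaP and DMSO at either time, though HIST2 at 12 h was apart by little (17.49 against 17.7 CPM). Per length, the members summed to 309.3 and 310.5 TPM in BaP 12 h, against 501.8 and 430.5 TPM in DMSO 12 h, and to 273.4 and 188.4 TPM in BaP 24 h, against 365.7 and 349.8 TPM in DMSO 24 h.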
